A study of Mus musculus with 4 samples.

Results

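The Eph receptors and ephrins described here were 10 genes picked by their symbols in the count table, 7 receptors (Ephb2, Ephb3, Ephb4, Epha1, Epha2, Epha4 and Epha7) and 3 ligands (Efnb1, Efnb2 and Efna1), of 52459 genes listed. The table held 22 genes of the family, 14 receptors and 8 ephrins, and the other 12 are given after the members. They were found by gene name, with no threshold on a measured value. RNA came from wild-type (WT) C57/Bl6 mice of 2 months (young, ISC_2mth) and 22 months (old, ISC_22mth), with 2 libraries per age and a pool of 5 animals behind each. Intestinal stem cells (ISCs) are the dividing cells at the base of the small intestinal crypt, and the labels give no transgene and no treatment. Cells were sorted with the SM6 strategy as negative for CD31 and CD45, intermediate for CD24, low for GRP78, high for CD44 and EPHB2, and positive for CD166 and EPCAM. For each library 25 ng of RNA was amplified by SPIA, an isothermal method with a single primer that covers whole transcripts and adds no molecular identifiers.

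Eph receptors are membrane tyrosine kinases that bind ephrins on the surface of neighbouring cells, so signalling needs contact and can run into both cells. A-type ephrins are held in the membrane by a lipid anchor and B-type ephrins span it, and receptors of each class mostly bind ephrins of the same letter. In the intestinal crypt, EphB2 and EphB3 are known as targets of Wnt signalling that are high towards the crypt base, with ephrin-B ligands higher towards the villus, and their repulsion keeps the cell types at their positions along this axis.

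The 4 libraries held between 11662654 and 15975698 counts. Mitochondrially encoded genes took 62.6% and 65.7% of the counts in the young pools and 73.8% and 72.9% in the old pools, which left between 3852178 and 4593004 counts for all other genes. Values are counts scaled to a common total (CPM) after TMM normalization, which sets the libraries level over the bulk of genes. A count of 3 corresponded to between 0.199 and 0.246 CPM. Ages were compared over the 13692 genes that had over 5 reads and over 1 CPM in some library, with CPM for this filter taken on total counts, before TMM normalization. The quasi-likelihood test of edgeR with Benjamini-Hochberg adjustment called 309 of these genes (2.26%) at a false discovery rate (FDR) of 0.05, 223 (1.63%) higher and 86 (0.628%) lower in old ISCs. Over all genes tested, log2 fold changes had a median of -0.0049.

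All 10 members passed the filter, and 1 of 10 passed FDR 0.05, Ephb4, which was lower in old ISCs. By library, Ephb2 and Ephb4 were lower in both old pools than in both young pools, Epha7 was higher, and the other 7 members overlapped between ages. Over all genes tested, 47.6% did not overlap between ages (24.0% higher and 23.6% lower), so separation by library alone was common in these 4 libraries. An unadjusted p under 0.05 was reached by 3 of 10 members (Ephb2, Ephb4 and Epha7) and by 16.9% of all genes tested. Log2 fold changes of the 10 members had a median of -0.04.

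**Figure D1:**
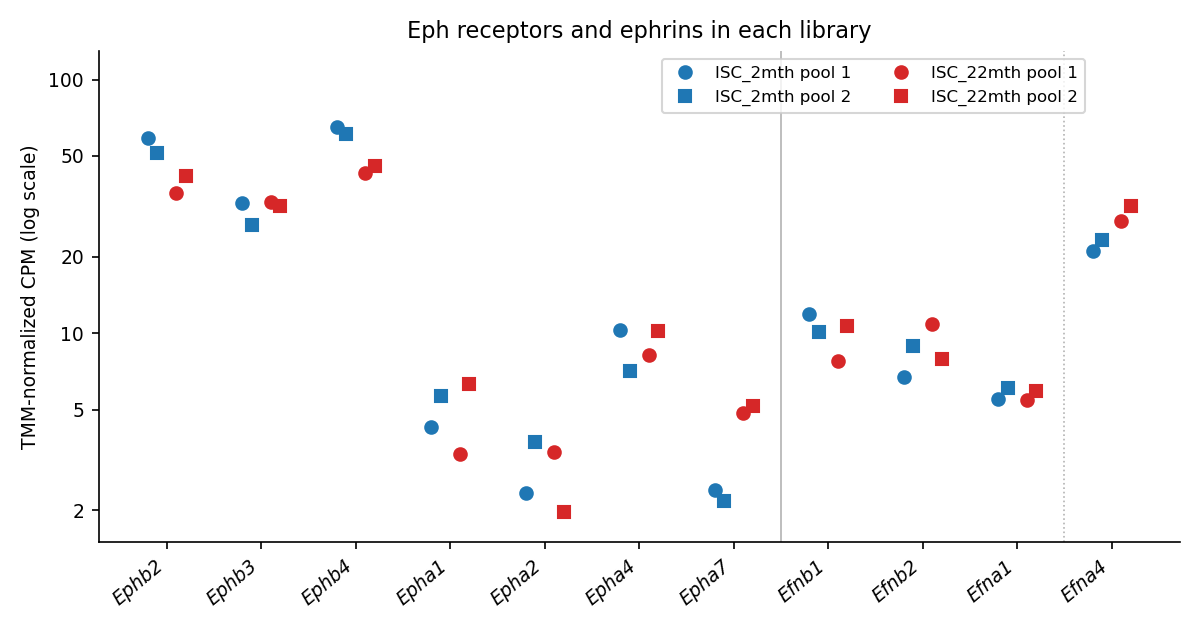
TMM-normalized CPM (y axis, log scale) of the 10 members and of Efna4 in each of the 4 libraries, blue for the ISC_2mth pools and red for the ISC_22mth pools, with a circle for pool 1 and a square for pool 2. Receptors stand left of the solid line, member ephrins between the lines and Efna4 right of the dotted line. Both red points lie below both blue points for Ephb2 and Ephb4 and above them for Epha7 and Efna4.

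Levels of different genes were compared per kilobase of exon, since long transcripts collect more reads. Ephb4 was the highest member per kilobase, with 13.6 ± 0.656 CPM per kb (SD, n = 2) in young ISCs and 9.55 ± 0.426 in old ISCs. Ephb3 followed with 4.47 ± 0.639 and 4.86 ± 0.139 CPM per kb, and Ephb2 with 4.38 ± 0.417 and 3.06 ± 0.343. In young ISCs Ephb3 and Ephb2 differed by less than the spread between pools, while in old ISCs both pools had more Ephb3 than Ephb2. This order rests on the lengths used, 12608 bp of merged exons for Ephb2 and 6641 bp for Ephb3. With the length of the principal transcript in place of merged exons, 10902 bp for Ephb2 and 4185 bp for Ephb3, Ephb3 had 7.10 ± 1.01 CPM per kb and Ephb2 5.07 ± 0.482 already in young ISCs.

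The ephrins Efnb1 and Efna1 came next, with 3.20 ± 0.368 and 3.17 ± 0.223 CPM per kb in young ISCs, a difference within the spread between pools. In old ISCs they had 2.67 ± 0.584 and 3.10 ± 0.173 CPM per kb, and neither could be told from Ephb2 by the spread. Below them, Epha1 (1.26 ± 0.244), Efnb2 (1.14 ± 0.226) and Epha4 (1.08 ± 0.280) overlapped in CPM per kb in young ISCs, and also in old ISCs. Epha2 and Epha7 were the lowest. In young ISCs Epha2 had 0.648 ± 0.207 CPM per kb and Epha7 0.233 ± 0.0163, while in old ISCs they had 0.575 ± 0.218 and 0.506 ± 0.0226, which overlapped. The EphB receptors therefore carried most receptor counts, 89.0% and 87.8% of counts on all 14 receptors in the young pools and 84.6% and 83.3% in the old pools.

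The bases just before the annotated start are shown for the 4 receptors on which the results turn: Ephb2 and Ephb4, which were lower in both old pools, Epha7, which was higher, and Ephb3, a close relative of Ephb2 that overlapped between ages. They are RefSeq sequences of GRCm38.p6, 5′ to 3′ on the strand of the gene, with matches to the GC box GGGCGG (on either strand) in capitals. The stretches are chr4:136836013-136836262 (minus strand) for Ephb2, chr16:21204545-21204754 (plus strand) for Ephb3, chr5:137349859-137350108 (plus strand) for Ephb4 and chr4:28812881-28813130 (plus strand) for Epha7. The Ephb3 stretch has 210 bases and the others 250, since bases inside annotated exons were left out.
Ephb2: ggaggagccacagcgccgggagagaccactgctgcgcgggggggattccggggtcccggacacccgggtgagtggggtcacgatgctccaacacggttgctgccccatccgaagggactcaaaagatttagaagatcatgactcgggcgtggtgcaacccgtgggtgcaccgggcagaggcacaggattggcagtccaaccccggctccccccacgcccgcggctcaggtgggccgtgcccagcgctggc
Ephb3: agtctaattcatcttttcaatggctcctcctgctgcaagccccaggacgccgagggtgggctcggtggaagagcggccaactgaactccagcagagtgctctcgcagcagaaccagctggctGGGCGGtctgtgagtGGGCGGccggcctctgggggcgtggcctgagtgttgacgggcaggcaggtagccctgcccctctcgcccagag
Ephb4: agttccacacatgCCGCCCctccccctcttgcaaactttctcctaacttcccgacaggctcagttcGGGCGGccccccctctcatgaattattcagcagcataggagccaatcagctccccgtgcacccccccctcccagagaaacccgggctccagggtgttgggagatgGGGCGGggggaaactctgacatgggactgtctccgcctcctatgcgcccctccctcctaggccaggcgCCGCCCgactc
Epha7: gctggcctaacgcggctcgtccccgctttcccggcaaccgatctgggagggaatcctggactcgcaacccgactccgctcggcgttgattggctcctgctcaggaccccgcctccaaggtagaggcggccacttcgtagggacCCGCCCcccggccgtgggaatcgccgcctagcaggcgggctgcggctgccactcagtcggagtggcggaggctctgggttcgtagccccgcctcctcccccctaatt

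Of these stretches, Ephb2 held no GC box, Ephb3 had 2, Ephb4 had 4 and Epha7 had 1. All 10 members matched a RefSeq start by symbol, and in the 250 bases before the first start listed, 8 of 10 held a GC box against 32.7% of 32851 windows of the same length. These windows were rich in G and C, 68.4% in Ephb2, 65.6% in Ephb3, 64.0% in Ephb4 and 69.2% in Epha7, against a median of 52.4% over all windows. The TCF/LEF letters (CTTTGAA or its variant CTTTGAT, the variant CTTTGTA or the variant CTTTGTT) were found in 1 of 10 members, Epha2, and in 14.8% of all windows. The EGR letters (GCGGGGGCG or its variant GCGTGGGCG), which can overlap a GC box, were found in 1 of 10, Epha1, and in 3.06% of all windows. Neither the AP-1 letters TGACTCA (4.46% of all windows) nor a pair of GAAA repeats as in IRF sites (2.98%) were found before any member. All letters were searched on both strands, and a match or its lack describes only these windows.

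EphB4 is a receptor whose main ligand is ephrin-B2, best known from the boundary of arteries and veins. Ephb4 (chr5:137350109-137378669, plus strand) had 946 and 920 counts in the young pools and 567 and 558 in the old pools, or 65.3, 61.0, 42.9 and 45.7 CPM in that order. Both old pools lay well below both young pools, and pools of an age were close. The mean fell from 63.1 ± 3.04 to 44.3 ± 1.98 CPM (SD, n = 2), a log2 fold change of -0.51 (SE 0.13, 95% interval -0.78 to -0.24), and the old level was 0.702 of the young one. This decrease passed the threshold by edgeR's quasi-likelihood test (FDR = 0.0419). It did not pass with DESeq2 (FDR = 0.0501, 1.44% of all genes passing), without ISC_2mth pool 1 (FDR = 0.320), without ISC_2mth pool 2 (FDR = 0.0768) or after correction for GC content and length (log2 fold change -0.35, FDR = 0.211), where 1.00% of all genes passed. As the samples are bulk RNA, fewer cells that express a gene and less of its RNA per cell cannot be told apart, here and below.

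As EphB4 is also known from endothelial cells, their markers are given beside it. Of 6 endothelial markers 1 passed the filter and 2 were at 0 in all libraries, and their summed level lay between 0.552 and 1.26 CPM. Vwf, the marker that passed, had 3, 19, 13 and 7 counts (log2 fold change 0.08, FDR = 0.973, edgeR's quasi-likelihood test), and Pecam1, which encodes CD31, had 1, 0, 1 and 7 counts. The part of endothelial cells in the level of Ephb4 was not tested.

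EphB2 is the receptor whose protein was used in the sort. Ephb2 (chr4:136647539-136835988, minus strand) had 855 and 778 counts in the young pools and 470 and 509 in the old pools, or 59.0, 51.6, 35.6 and 41.7 CPM. Both old pools lay below both young pools. The mean was 55.3 ± 5.26 CPM in young and 38.6 ± 4.33 CPM in old ISCs (SD, n = 2), a log2 fold change of -0.52 (SE 0.14, 95% interval -0.81 to -0.23), nearly the same size as that of Ephb4. With edgeR's quasi-likelihood test this missed the threshold (FDR = 0.0576). The methods of the study name limma voom with sample quality weights and edgeR's likelihood ratio test. Ephb2 passed by limma voom (FDR = 0.0452), where 2.34% of all genes passed, and by edgeR's likelihood ratio test (FDR = 0.0249), where 4.46% passed. It did not pass by DESeq2 (FDR = 0.0951). Nor did it pass edgeR's quasi-likelihood test after correction for GC content and length (log2 fold change -0.34, FDR = 0.262). With each pool left out, its log2 fold change ran from -0.64 to -0.41. Because cells were gated as EPHB2-high at both ages, the gate bounds which cells could contribute, and its part in the difference was not tested.

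Of the other antigens of the gate, 1 changed. Cd24a, which encodes CD24, had 307 ± 38.4 CPM in young and 492 ± 23.5 CPM in old ISCs (SD, n = 2) and rose (log2 fold change 0.68, FDR = 0.00348, edgeR's quasi-likelihood test). Cd44 had 130 ± 15.6 and 110 ± 16.1 CPM (log2 fold change -0.24, FDR = 0.365), and Alcam, which encodes CD166, had 37.4 ± 4.57 and 42.5 ± 0.706 CPM (log2 fold change 0.18, FDR = 0.538). Hspa5 (GRP78, log2 fold change 0.29, FDR = 0.327) and Epcam (log2 fold change 0.06, FDR = 0.840) overlapped between ages. So 1 of the 6 antigens other than CD31 and CD45 passed the threshold, Ephb2 and the low-gated Hspa5 counted among them, and it moved in the opposite direction to Ephb2.

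EphB3 shares ephrin-B ligands with EphB2 and is known to be high in Paneth cells, the secretory cells between the stem cells. Ephb3 (chr16:21204755-21223305, plus strand) had 474 and 403 counts in the young pools and 435 and 386 in the old pools, or 32.7, 26.7, 32.9 and 31.6 CPM. The ages overlapped, with 1 young pool at the level of the old pools. The mean was 29.7 ± 4.24 CPM in young and 32.3 ± 0.923 CPM in old ISCs (SD, n = 2), a log2 fold change of 0.12 (SE 0.15, 95% interval -0.19 to 0.43, FDR = 0.736). The interval of Ephb3 lay above the point estimates of Ephb2 and Ephb4. Whether its change differed from theirs was not tested.

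Within each library the EphB receptors could be compared as ratios of counts, which do not depend on library scaling. There were 1.80 and 1.93 Ephb2 counts per Ephb3 count in the young pools and 1.08 and 1.32 in the old pools. For Ephb4 to Ephb3 the ratio was 2.00 and 2.28 in the young pools and 1.30 and 1.45 in the old pools. The ratio of Ephb2 to Ephb4 was 0.904 and 0.846 in the young pools and 0.829 and 0.912 in the old pools. The first 2 ratios were lower in both old pools than in both young pools, while the last one overlapped between ages. With 2 libraries per age an exact permutation test cannot go below p = 0.333, so these ratios are given without a test.

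**Figure D2:**
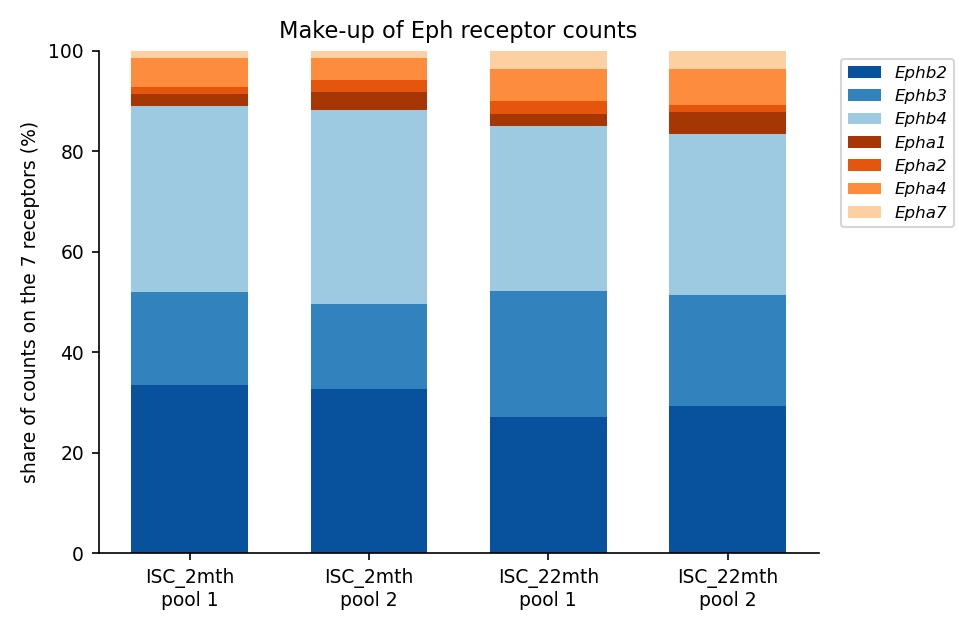
Share of the counts on the 7 member receptors (y axis, percent) taken by each receptor in each of the 4 libraries (x axis), with EphB receptors in blue and EphA receptors in orange. The dark blue Ephb2 share lies at 33.5% and 32.7% for the young and at 27.1% and 29.2% for the old pools, and the Ephb3 share is higher in both old pools.

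Of the counts on the 7 member receptors, Ephb2 took 33.5% (exact 95% binomial interval 31.6 to 35.3) and 32.7% (30.8 to 34.6) in the young pools. In the old pools it took 27.1% (25.0 to 29.3) and 29.2% (27.1 to 31.4). These intervals cover counting error only, as amplified reads are not independent molecules. The mean share was 33.1% ± 0.567 in young and 28.2% ± 1.48 in old ISCs (SD, n = 2), a difference of -4.89 percentage points, which was -2.43 with counts per kilobase of exon. Ephb4 took 37.0% and 38.6% in the young pools and 32.7% and 32.0% in the old pools. Ephb3 took 18.6% and 16.9% in the young pools and 25.1% and 22.2% in the old pools, and Epha7 1.37% and 1.39% against 3.69% and 3.62%. Epha4 took 5.83% and 4.49% in the young pools and 6.23% and 7.18% in the old pools. Thus the Ephb2 and Ephb4 shares were smaller, and the Ephb3, Epha4 and Epha7 shares larger, in both old pools, in a set of shares that must sum to the whole.

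Among EphA receptors, EphA7 is best known from the developing nervous system. Epha7 (chr4:28813131-28967499, plus strand) had 35 and 33 counts in the young pools and 64 and 63 in the old pools, or 2.42, 2.19, 4.84 and 5.16 CPM. Pools of an age were nearly equal and the old pools lay above the young pools. The mean was 2.30 ± 0.161 CPM in young and 5.00 ± 0.224 CPM in old ISCs (SD, n = 2), a log2 fold change of 1.12 (SE 0.33, 95% interval 0.43 to 1.80), the largest difference among the members. At 33 to 64 counts per library it did not pass edgeR's quasi-likelihood test (FDR = 0.0830), nor limma voom (FDR = 0.0881) or DESeq2 (FDR = 0.283), although it passed edgeR's likelihood ratio test (FDR = 0.0348).

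EphA4, which binds A-type and also B-type ephrins, was the most counted EphA receptor. Epha4 (chr1:77367185-77515088, minus strand) had 149, 107, 108 and 125 counts, or 10.3 and 7.09 CPM in the young pools and 8.17 and 10.2 CPM in the old pools, with a log2 fold change of 0.08 (95% interval -0.41 to 0.58, FDR = 0.899). Epha1 (chr6:42358487-42373268, minus strand) had 62, 85, 44 and 77 counts, or 4.28 and 5.63 CPM in young and 3.33 and 6.31 CPM in old pools, with a log2 fold change of -0.05 (95% interval -0.71 to 0.62, FDR = 0.958). Epha2 (chr4:141301240-141329384, plus strand), a receptor common in epithelia, had 34, 56, 45 and 24 counts, or 2.35 and 3.71 CPM in young and 3.41 and 1.97 CPM in old pools, with a log2 fold change of -0.17 (95% interval -1.0 to 0.67, FDR = 0.874). In all 3 genes the ages overlapped, and the old pools differed from each other by more than the means of the ages did. The intervals of Epha1 and Epha2 hold a change as large as that of Ephb2, as do those of Efnb1 and Efna1 below. Epha1 shares 236 bp of exon with Zyx on the opposite strand, and 5.54% of its stretches of 50 nt occur in transcripts of other genes, so its counts are less certain if counting ignored strand.

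Ephrin-B1 and ephrin-B2 are the ligands of the EphB receptors. Efnb1 (chrX:99136130-99148991, plus strand) had 173 and 153 counts in the young pools and 103 and 130 in the old pools, or 11.9, 10.1, 7.79 and 10.7 CPM, with a log2 fold change of -0.26 (95% interval -0.72 to 0.20, FDR = 0.584). Efnb2 (chr8:8617434-8661242, minus strand) had 97 and 134 counts in the young pools and 144 and 97 in the old pools, or 6.69, 8.88, 10.9 and 7.94 CPM, with a log2 fold change of 0.28 (95% interval -0.22 to 0.77, FDR = 0.596). Neither ligand passed the threshold, and both overlapped between ages. ISC_22mth pool 1 had the lowest Efnb1 and the highest Efnb2 of the 4 libraries, so its ratio of Efnb1 to Efnb2 counts, 0.715, was the lowest, against 1.78 and 1.14 in the young pools and 1.34 in the other old pool. Counts on the 3 EphB receptors together were 8.43 and 7.32 times those on Efnb1 and Efnb2 in the young pools and 5.96 and 6.40 times in the old pools, with no overlap.

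Ephrin-A1 binds several EphA receptors. Efna1 (chr3:89271733-89281142, minus strand) had 80, 92, 72 and 72 counts, or 5.52 and 6.10 CPM in the young pools and 5.45 and 5.90 CPM in the old pools. It was the steadiest member, with a log2 fold change of -0.04 (95% interval -0.57 to 0.50, FDR = 0.961) by edgeR's quasi-likelihood test.

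**Figure D3:**
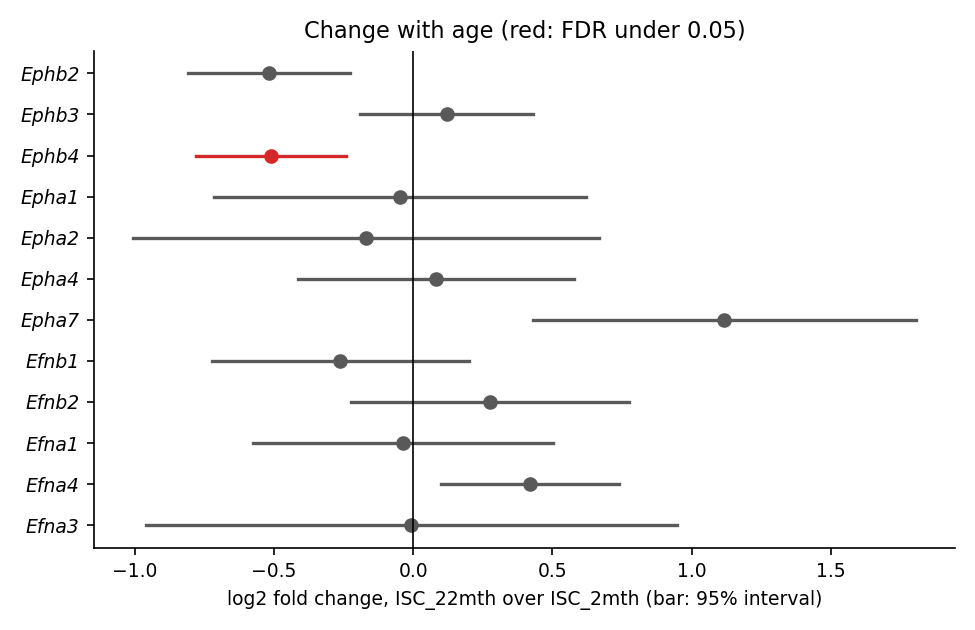
Log2 fold change of ISC_22mth over ISC_2mth (x axis) with its 95% interval (bar) for the 10 members and for Efna4 and Efna3, from edgeR's quasi-likelihood fit. Ephb4 (red, -0.51) passed FDR 0.05, the intervals of Ephb2, Epha7 and Efna4 also lie on 1 side of 0, and the other 8 intervals span 0.

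Of the other 12 genes of the family, 2 passed the filter, and neither passed FDR 0.05 by any tool run, edgeR's quasi-likelihood test included, while Efna4 had an unadjusted p under 0.05. Efna4 (chr3:89333390-89338028, minus strand), which encodes another lipid-anchored ephrin, had 307 and 352 counts in the young pools and 367 and 388 in the old pools. That made it the highest ephrin of all, with 13.9 ± 0.948 CPM per kb in young and 18.6 ± 1.77 CPM per kb in old ISCs (SD, n = 2), close to Ephb4 in young ISCs and above it in old ISCs. Its mean was 22.3 ± 1.52 CPM in young and 29.8 ± 2.83 CPM in old ISCs, with both old pools above both young pools (log2 fold change 0.42, 95% interval 0.10 to 0.74, FDR = 0.166). Per count of Efna1 there were 3.84 and 3.83 counts of Efna4 in the young pools and 5.10 and 5.39 in the old pools. Efna4 shares 168 bp of exon with the antisense gene 4731419I09Rik, and 7.68% of its 50-nt stretches occur in other transcripts.

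Efna3, its neighbour on chromosome 3, had 21, 48, 36 and 23 counts (log2 fold change -0.01, FDR = 0.997) and shares 344 bp of exon with Gm15998 on the opposite strand. The remaining 10 genes did not pass the filter. Efnb3 had 11, 12, 15 and 10 counts, Epha10 1, 8, 7 and 2, and Ephb6, Efna2 and Epha3 at most 3 in any library. Ephb1, Epha5, Epha6, Epha8 and Efna5 were at 0 in all 4 libraries, so any level was below the CPM given above for 3 counts.

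Downstream of the receptors, signals run through adaptors and kinases to regulators of small GTPases, and phosphatases, ubiquitin ligases and proteases end them. Of 54 genes listed for these steps and for partners of ephrin-B, 50 passed the filter. By edgeR's quasi-likelihood test 0 of these passed FDR 0.05, while 7 of the 50 had an unadjusted p under 0.05 (16.9% of all genes did). Limma voom called 1 of the 50 (Rac1), edgeR's likelihood ratio test 1 (Tiam1) and DESeq2 0, against 2.34%, 4.46% and 1.44% of all genes. Old pools lay above young pools for 9 of the 50 and below them for 19, against 24.0% and 23.6% of all genes. The median log2 fold change of the list was -0.05.

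**Figure D4:**
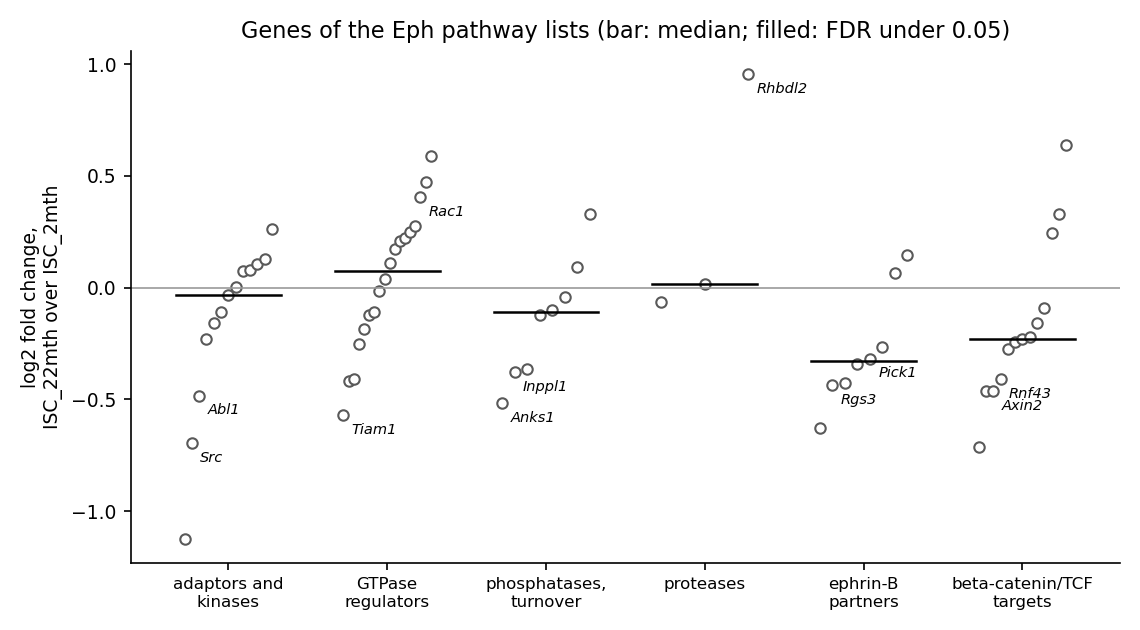
Log2 fold change of ISC_22mth over ISC_2mth (y axis) of each tested gene in 5 lists of Eph and ephrin signalling genes and in a list of beta-catenin/TCF targets (x axis), with a horizontal bar at the list median. Open circles mark genes that did not pass FDR 0.05, which holds for all genes shown, and labels mark the genes of lowest p that the text names.

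Genes of lowest p in these steps are given with their values. Among regulators of GTPases, Tiam1, an activator of Rac1, had 522 and 439 counts in the young pools and 296 and 261 in the old pools (log2 fold change -0.57, FDR = 0.0612). Rac1 itself, a GTPase that drives actin remodelling, had 2014, 2118, 2279 and 2413 counts (log2 fold change 0.41, FDR = 0.0782), so the activator was lower and the GTPase higher in both old pools. Rac1 shares 2309 of its 4496 bp of exon with Daglb on the opposite strand, so its counts are uncertain if counting ignored strand. Among kinases, Src had a log2 fold change of -0.70 (FDR = 0.142) and Abl1 of -0.48 (FDR = 0.142), both with old pools below young pools.

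In receptor turnover, Anks1, an adaptor that binds Eph receptors, had a log2 fold change of -0.52 (FDR = 0.285), and the lipid phosphatase Inppl1 had -0.38 (FDR = 0.297). Of the proteases, Rhbdl2, a rhomboid that can cleave B-type ephrins, had 7, 11, 13 and 17 counts (log2 fold change 0.96, FDR = 0.552). Of the ephrin-B partners, the PDZ protein Pick1 had a log2 fold change of -0.32 (FDR = 0.301) and Rgs3, a regulator of G protein signals, -0.44 (FDR = 0.379). Inppl1 shares 1204 bp of exon with Gm10602 on the opposite strand and Pick1 1222 bp with Gm49486 on the same strand, so their counts are less certain.

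Since Ephb2 and Ephb3 are known targets of beta-catenin and TCF, other crypt targets were set beside them. Of 14 listed, 13 passed the filter and 0 passed FDR 0.05 by edgeR's quasi-likelihood test, while 6 had an unadjusted p under 0.05 (16.9% of all genes did) and voom, the likelihood ratio test and DESeq2 each called 1, Axin2. Old pools lay below young pools for 8 of the 13 genes and above them for 3, against 23.6% and 24.0% of all genes, and the median log2 fold change was -0.23. Axin2, a feedback inhibitor of Wnt signalling, had 2156 and 1932 counts in the young pools and 1348 and 1204 in the old pools (log2 fold change -0.46, FDR = 0.0511). Rnf43, which removes Wnt receptors from the surface, had 1816 and 1649 counts in the young and 1166 and 1080 in the old pools (log2 fold change -0.41, FDR = 0.0876).

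Stem cell markers were abundant at both ages. Lgr5 had 231 ± 23.9 CPM in young and 207 ± 1.76 CPM in old ISCs (SD, n = 2; log2 fold change -0.16, FDR = 0.525), and Olfm4 1266 ± 50.6 and 1200 ± 126 CPM. Of 5 such markers 0 were called by edgeR's quasi-likelihood test at FDR 0.05, while 2 had an unadjusted p under 0.05, Ascl2 (log2 fold change 0.33) and Sox9 (log2 fold change -0.28), both named after their values were seen.

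Markers of other crypt and villus cells are given beside the receptors. Summed Paneth markers were 808 and 637 CPM in the young pools and 1933 and 744 CPM in the old pools, and 3 of 6 rose, among them the defensin Defa24 (log2 fold change 0.87, FDR = 0.0456). Defa24 had 266, 199, 584 and 268 CPM in library order, so ISC_22mth pool 2 was at the level of ISC_2mth pool 1. Lyz1, the Paneth lysozyme, was also high in ISC_22mth pool 1 alone, with 311, 227, 750 and 204 CPM in library order. Summed enterocyte markers were 225 and 251 CPM in the young and 468 and 400 CPM in the old pools, and 2 of 6 rose, among them Sis, the sucrase of the brush border (log2 fold change 1.38, FDR = 3.4e-05).

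Goblet markers summed to between 1870 and 2559 CPM with 0 of 6 called by edgeR's quasi-likelihood test at FDR 0.05 and 0 with an unadjusted p under 0.05, and Muc2 (log2 fold change 0.11) and Fcgbp (-0.02) overlapped between ages. Enteroendocrine markers summed to 26.5 and 128 CPM in the young and 114 and 78.5 CPM in the old pools, 0 of the 5 tested passing and 2 with an unadjusted p under 0.05, with Chgb at 313, 1654, 1198 and 764 counts and Chga at 28, 123, 94 and 73. Tuft markers summed to between 5.52 and 9.91 CPM, and 1 of the 4 tested rose. The median log2 fold change of the 4 was 0.36, with 2 above 0. Those of highest level, Il17rb (log2 fold change -0.30) and Pou2f3 (-0.21), did not pass. Leukocyte markers summed to at most 1.21 CPM, with Lyz2 at 3, 4, 9 and 3 counts, and fibroblast markers to at most 0.151 CPM. Summed enterocyte markers and the mitochondrial share were higher in both old pools, in which Ephb2 and Ephb4 were lower, and their part in it was not tested. Summed Paneth markers did not separate the ages, as ISC_22mth pool 2 lay between the young pools. Singly, 3 of the 6 Paneth markers were higher in both old pools, against 24.0% of all genes. By edgeR's quasi-likelihood test 5 of the 6 had an unadjusted p under 0.05, against 16.9% of all genes. Without ISC_22mth pool 1, where summed Paneth markers were highest, Ephb4 had a log2 fold change of -0.47 and Ephb2 of -0.41. The part of Paneth cells in the levels of Ephb2 and Ephb4 was not tested either.

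Members also differed in base composition, as did the genes called in each direction. Exons of Ephb2 held 54.3% G and C, those of Ephb3 57.6% and those of Ephb4 57.5%, against 41.0% in Epha7. Over the genes tested the median was 48.3%, over those called lower 54.5% and over those called higher 45.1% (84 and 221 genes with a value). The part of base composition in the changes of the members was not tested. The correction that follows removes any difference between libraries that goes with GC content or length, whatever its source, so it is no such test. After correction of each library for GC content and length, Ephb2 had a log2 fold change of -0.34 (FDR = 0.262), Ephb3 0.33 (FDR = 0.322) and Epha7 1.07 (FDR = 0.135). No member then passed edgeR's quasi-likelihood test, which called 1.00% of all genes.

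**Figure D5:**
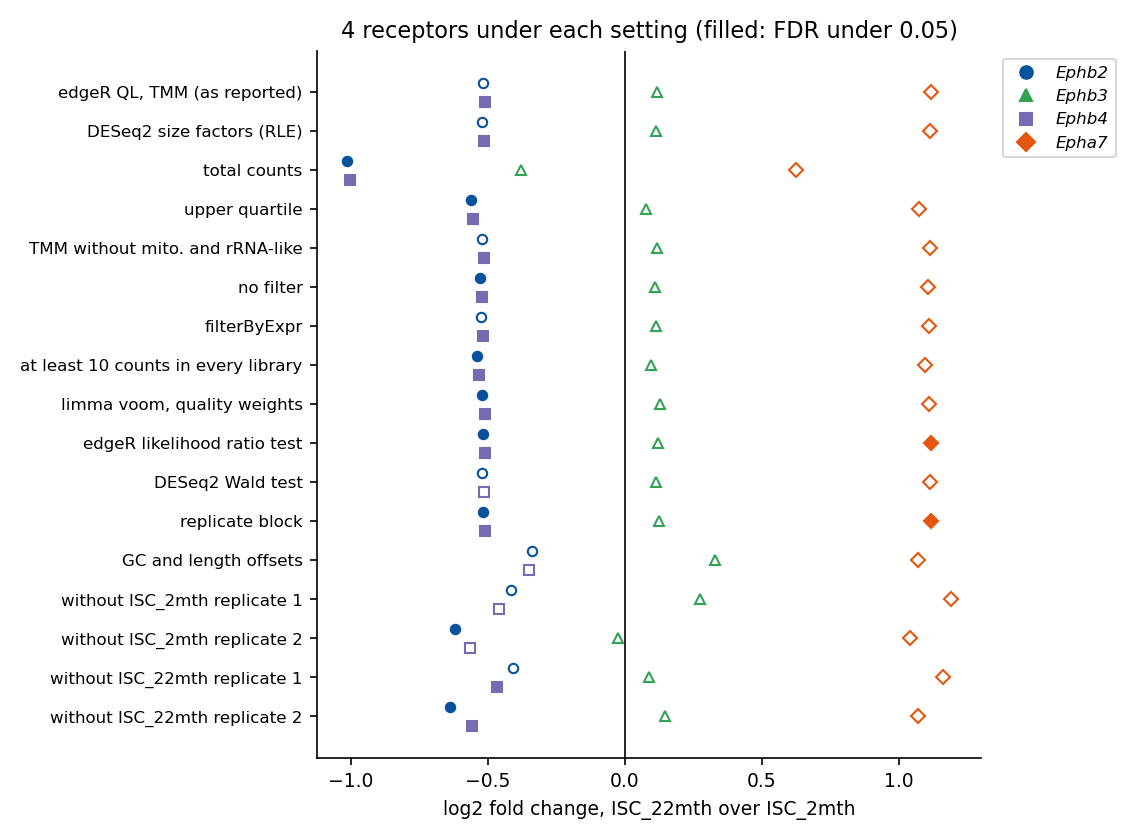
Log2 fold change of ISC_22mth over ISC_2mth (x axis) of Ephb2, Ephb3, Ephb4 and Epha7 under each way of processing (y axis), filled where FDR was under 0.05. Ephb2 and Ephb4 lie left of 0 and Epha7 right of 0 under every setting shown, while Ephb3 falls below 0 with total counts (-0.38) and without ISC_2mth replicate 2 (-0.03).

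The direction of Ephb2, Ephb4 and Epha7 was the same under all alternatives tried, as the plot of settings shows, while the number of members past FDR 0.05 went from 0 to 3. Without ISC_2mth pool 1 no member passed, without ISC_2mth pool 2 only Ephb2 passed, without ISC_22mth pool 1 only Ephb4 passed, and without ISC_22mth pool 2 both passed. In this order these fits called 1.07%, 2.04%, 4.73% and 5.05% of all genes.

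Genes with the profile over the 4 libraries most like Ephb2 were Nudcd3, Prdm2 and Kif13b, at distances of 0.0397, 0.0507 and 0.0559 between mean-centred log2 CPM profiles, among 6127 genes with a mean of at least 10 CPM. Nudcd3 had 23.5 and 20.7 CPM in the young pools and 14.1 and 17.1 in the old pools, and none of the 3 passed FDR 0.05 (Nudcd3 0.140, Prdm2 0.0992, Kif13b 0.120). Most like Ephb4 were Zbtb7b, Gm38065 and Pnpla2, at distances of 0.0418, 0.0510 and 0.0522, none of which passed either. With 4 libraries many genes fall and rise together, and a like profile is a description only.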

How the data were processed

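RNA of sorted ISCs was measured in 4 libraries, 2 per age, each from a pool of 5 animals. Reads were trimmed by the authors (Trimmomatic 0.30), placed on GRCm38 (mm10) with STAR 2.4.2a and assigned to exons of GENCODE genes with featureCounts. The deposited values are raw counts per gene, without normalization or filtering. The strand setting and the handling of reads that align to several places are not given in the sources used here. Ages and replicate numbers were taken from the sample labels.

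As in the study, genes needed over 5 reads and over 1 CPM in some library, which kept 13692 of 52459. CPM in this filter was on total counts, while CPM printed as levels was TMM-scaled. Counts were scaled by TMM and ages compared with edgeR 4.0.16 (R 4.3.3; glmQLFit, glmQLFTest, no covariate), with Benjamini-Hochberg adjustment over all genes kept and a threshold of 0.05. Standard errors and 95% intervals came from the log2 fold change and its F value. P-values measure the spread between pools, with 2 per age. Pools of an age differed by more than counting noise (chi-square per gene 9.42 and 7.11). Alternatives were other scalings, filters and tools (limma 3.58.1, DESeq2 1.42.0), the replicate number as a block, offsets for GC content and length (lowess, span 0.3), and leaving out each pool. Same-numbered pools of the 2 ages came from different animals, and their deviations did not move together (r = -0.0059 over genes), so the numbers were not taken as pairs. The fits were tested on simulated data.

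Members and lists were chosen with earlier results of these data known. Genes named are the 10 members, the other family genes that passed the filter, the 2 genes of lowest p in each signalling list and in the list of beta-catenin/TCF targets (none had an FDR under 0.05), the sort antigens other than CD31 and CD45, at most 2 genes of highest mean CPM per marker list, and the 3 genes of nearest profile to Ephb2 and to Ephb4. Of these, 2 genes are not reported here. Ascl2 and Sox9 were named outside this rule, after their values were seen. Exon lengths, GC content, positions and overlaps came from GENCODE vM21 on GRCm38, matched by symbol (96.7% of genes kept), while the authors counted on the earlier release vM15, whose exon lengths may differ, and sequences before starts from RefSeq (GRCm38.p6). Stretches of 50 nt were matched exactly on either strand. Markers of stem, Paneth, goblet, enterocyte, enteroendocrine, tuft, endothelial, leukocyte and fibroblast cells were lists fixed by name.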

Additional observations from a re-analysis of the deposited data

How the results depend on the processing

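Of the 10 members, 1 passed FDR 0.05 with edgeR's quasi-likelihood test as reported. The number was 3 with total counts, 2 each with the upper quartile, with no filter, with at least 10 counts in every library and with limma voom, 3 with edgeR's likelihood ratio test, and 0 each with DESeq2 and with GC and length offsets. With the replicate number as a block it was 3 (Ephb2, FDR = 0.0167; Ephb4, FDR = 0.0153; Epha7, FDR = 0.0464), and over all genes 623 against 309, as against 611 with the likelihood ratio test and 4650 with total counts. Calls over all genes numbered 290 of 13692 with the upper quartile, 554 of 24764 with no filter and 249 of 11818 with at least 10 counts. They numbered 320 with limma voom, 197 with DESeq2 and 137 with GC and length offsets, each of 13692. Leaving out each pool gave 0 to 2 members. For the signalling list, with 0 calls as reported, the number was 27 with total counts, 1 each with the upper quartile, voom and the likelihood ratio test, 3 each with no filter and the replicate block, and 0 to 2 with each pool left out. For the beta-catenin/TCF targets, also with 0 as reported, it was 9 with total counts, 2 with no filter, and 1 each with DESeq2 size factors, the upper quartile, at least 10 counts, voom, the likelihood ratio test, DESeq2 and the replicate block, and 0 to 1 with each pool left out. The other Eph receptors and ephrins had 0 calls under all 16 alternatives.

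Total counts moved the middle of all genes to a log2 fold change of -0.50, and the share of higher calls from 223 of 309 to 96 of 4650. They moved the log2 fold changes of Ephb2 to -1.01, Ephb4 to -1.0 and Epha7 to 0.63, and turned those of Ephb3 to -0.38, Epha4 to -0.42 and Efnb2 to -0.21. Relative to that shift the latter were 0.12, 0.08 and 0.28, as in the reported fit. GC and length offsets turned Epha1 to 0.0022. Leaving out each pool gave log2 fold changes of -0.026 to 0.27 for Ephb3, -0.57 to 0.35 for Epha1, -0.62 to 0.19 for Epha2, -0.17 to 0.38 for Epha4 and -0.10 to 0.032 for Efna1, which all crossed 0. It gave -0.64 to -0.41 for Ephb2, -0.57 to -0.46 for Ephb4, 1.04 to 1.19 for Epha7, -0.50 to -0.051 for Efnb1 and 0.028 to 0.49 for Efnb2. The age that then holds 1 pool is assumed to vary like the other. The difference in the Ephb2 share of receptor counts was -2.43 percentage points per kilobase of exon and -2.79 per kilobase of principal transcript, the latter chosen after seeing the data, against -4.89 for counts. The cause of these shifts was not tested. The 95% intervals were widest for Epha1, Epha2 and Epha7, the members of fewest counts.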
